A study of Mus musculus with 10 samples.

Results

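Metallothionein and zinc transport genes were described in sorted stem cells of the mouse intestine. The 7 genes, taken by symbol from the 30295 gene rows measured, were the metallothioneins Mt1 and Mt2, the transcription factor Mtf1, the exporter genes Slc30a1 and Slc30a10, and the importer genes Slc39a4 and Slc39a5. All 7 were among the 15839 rows with enough reads to be tested. The set was selected on the values of Lgr5 CR against Lgr5 AL, where Mt2 had passed the test, so the values and calls of that contrast are a description and support nothing here. The other contrasts that use the Lgr5 libraries share them with that selection.

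The 10 libraries came from 10 C57Bl/6 mice handled in 5 isolations. Active stem cells were sorted through the Lgr5-EGFP-IRES-CreER reporter from mice under calorie restriction (Lgr5 CR, n = 3) or fed ad libitum (Lgr5 AL, n = 3). Reserve stem cells were sorted through Hopx-CreER::LSL-tdTomato, in which CreER made from Hopx switches on tdTomato, again under calorie restriction (Hopx CR, n = 2) or ad libitum feeding (Hopx AL, n = 2). Each isolation held 1 CR and 1 AL mouse of the same reporter line: isolations 1 to 3 were Lgr5 and isolations 4 and 5 were Hopx. No source used here gives the age of the mice or the degree and length of the restriction.

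Zinc enters the enterocyte, the absorptive cell of the gut lining, through the importer Slc39a4 at the lumen and leaves through the exporter Slc30a1 on the blood side. Free zinc inside a cell activates Mtf1, a zinc-finger factor that binds short metal response elements in DNA and switches on Mt1, Mt2 and Slc30a1. Metallothioneins are small cysteine-rich proteins that bind zinc and copper, and their genes also respond to glucocorticoids, oxidative stress and fasting.

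The promoter stretches of Mt1, Mt2 and Slc30a10 are shown because they hold the most copies of the metal response element core among the members. Each runs from 250 bases before to 30 bases after the start of the gene, 5′ to 3′ on the strand of the gene, with the cores in capitals (RefSeq, GRCm38.p6). A core on the other strand appears as its reverse complement. The Mt1 stretch lies at chr8:94178839-94179118, the Mt2 stretch at chr8:94172368-94172647 and the Slc30a10 stretch at chr1:185454598-185454877, all on the plus strand.
Mt1: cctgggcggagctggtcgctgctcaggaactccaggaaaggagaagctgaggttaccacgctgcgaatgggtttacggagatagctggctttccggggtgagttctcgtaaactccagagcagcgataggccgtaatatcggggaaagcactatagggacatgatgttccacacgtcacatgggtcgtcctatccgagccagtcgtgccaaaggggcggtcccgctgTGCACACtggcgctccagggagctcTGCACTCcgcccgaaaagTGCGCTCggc
Mt2: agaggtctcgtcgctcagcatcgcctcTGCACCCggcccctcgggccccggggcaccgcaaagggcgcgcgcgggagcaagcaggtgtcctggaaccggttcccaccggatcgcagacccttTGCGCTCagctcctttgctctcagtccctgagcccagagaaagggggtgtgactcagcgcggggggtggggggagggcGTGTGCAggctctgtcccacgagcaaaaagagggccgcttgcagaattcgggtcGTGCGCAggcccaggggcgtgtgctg
Slc30a10: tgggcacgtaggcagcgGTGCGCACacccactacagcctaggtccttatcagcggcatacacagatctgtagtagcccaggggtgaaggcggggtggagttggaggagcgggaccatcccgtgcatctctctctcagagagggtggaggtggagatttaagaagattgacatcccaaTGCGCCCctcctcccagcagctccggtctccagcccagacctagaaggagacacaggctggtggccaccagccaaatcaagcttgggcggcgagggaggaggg
The Mt1 and Mt2 starts are 6471 bases apart, so they form 1 cluster on chromosome 8. The core was searched as TGCACNC or TGCGCNC on both strands in windows that reach 50 bases past the start. Mt1 held 3 cores and Mt2 held 4. The first core of Mt1 began 23 bases before the start, and the others lay at bases 3 and 21 past it. These positions count from the start of the 1 RefSeq window of Mt1, while the GENCODE M21 annotation lists 3 Mt1 transcripts. Other starts were not searched, so the cores may lie otherwise to the start in use, and more may lie beyond the window. Those of Mt2 began 223, 128 and 50 bases before the start and 5 bases past it. Of all 32851 mouse windows of that length, 25.7% held at least 1 core, 1.97% at least 3 and 0.517% at least 4. Slc30a10 held 3, of which 2 overlap on opposite strands, Slc30a1 held 2, 1 of the 2 windows of Slc39a5 held 1, and the window of Mtf1 held 0. The 2 other motifs were searched in the same way. The antioxidant response element core TGACNNNGC was found 1 time in Mt2, 1 time in Slc30a1 and 2 times in 1 window of Slc39a5, against 12.4% of all windows with at least 1. The glucocorticoid receptor motif TGTTCT was found 1 time, in Mtf1, against 19.0% of all windows. A match is a run of letters and not a measured site. Sequence outside these windows was not searched for any of the motifs, so a motif not found is absent from the window only. Slc39a4 had no entry.

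The libraries held 20.3 to 87.2 M estimated counts each. The scarcest member reading was 76 counts, for Mt2 in Lgr5 AL replicate 1, and the most abundant 32395, for Slc39a4 in Hopx CR replicate 1. All 10 active stem cell markers were present in every group. Their summed level was 3492 to 4368 CPM in Hopx CR and 3197 to 4382 CPM in Hopx AL, against 7320 to 8628 CPM in Lgr5 CR and 4497 to 10834 CPM in Lgr5 AL. Hopx mRNA itself was not higher in the cells sorted through the Hopx reporter: the log2 difference was -0.23 for Hopx AL against Lgr5 AL and -0.60 for Hopx CR against Lgr5 CR, neither past the threshold (edgeR adjusted p = 0.541 and 0.572). All 16 enterocyte and 10 Paneth cell markers were detected in every group. The Y-linked Eif2s3y was at 0.0450 to 0.125 TPM in 3 libraries, both of isolation 3 and Hopx CR replicate 1, and at 8.91 to 30.5 TPM in the other 7. The CR and AL mice of isolation 4 therefore differed in it.

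Per length, Mt1 was the most abundant of the 7 genes, with a mean of 393 TPM (transcript abundance per fixed library total, corrected for transcript length) over the 10 libraries. Slc39a4 followed at 151 TPM, Slc39a5 at 96.1 TPM, Mt2 at 63.9 TPM and Mtf1 at 13.7 TPM. The exporters were scarce, with Slc30a1 at 2.72 TPM and Slc30a10 at 2.48 TPM. Among the 29 zinc transporter, metallothionein and Mtf1 rows, Mt1 ranked first and Slc39a4 second. Mt1 exceeded Mt2 in every library, with 665, 430 and 499 TPM of Mt1 against 150, 75.4 and 137 TPM of Mt2 in Lgr5 CR.

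**Figure D1:**
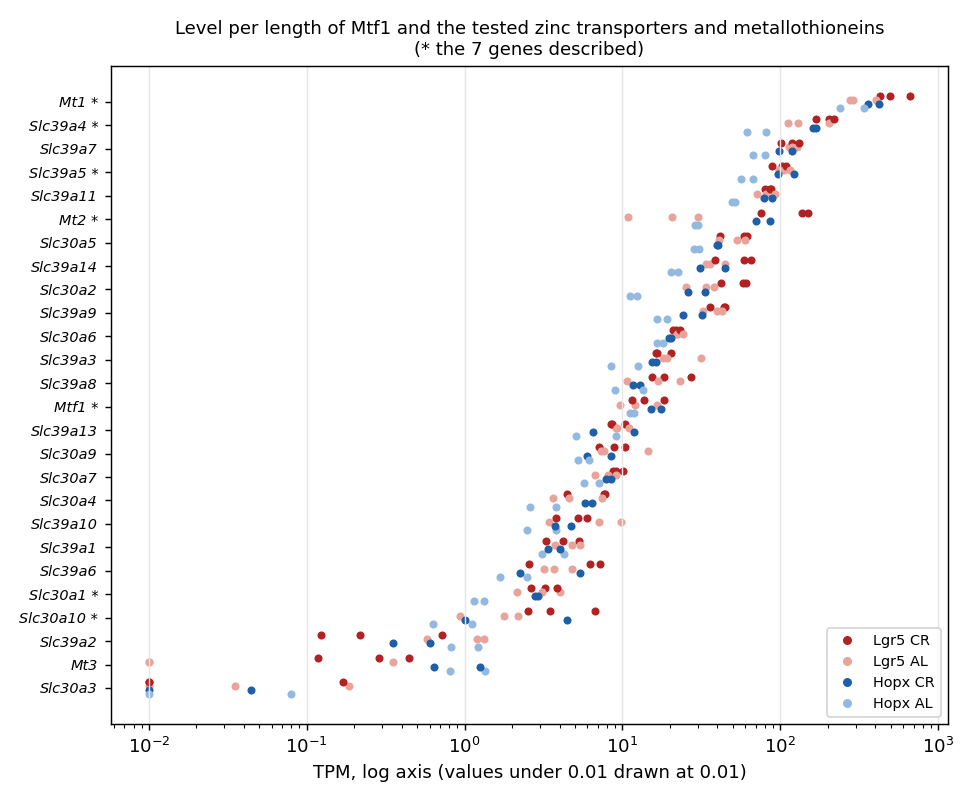
Level of Mtf1 and every tested metallothionein and zinc transporter gene in each of the 10 libraries, in TPM on a log axis, ordered by mean and coloured by group (1 point per library). Mt1 lies at 240 to 665 TPM, while Mt2 spans 10.9 to 150 TPM, the lowest of its points being the 3 of Lgr5 AL and the 2 of Hopx AL.

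Mt2 was the member with the largest fold change between diets in Lgr5 cells. It had 37.2, 19.5 and 32.5 CPM (counts per 1000000, after TMM scaling between libraries) in Lgr5 CR, against 2.71, 4.95 and 4.96 CPM in Lgr5 AL. In Hopx cells it had 26.7 and 21.2 CPM under CR, against 13.0 and 9.23 CPM under AL. The lowest CR library thus lay above the highest AL library in each population. The means were 29.7 ± 9.21 CPM in Lgr5 CR and 4.21 ± 1.30 CPM in Lgr5 AL (SD, n = 3 each), a ratio of 7.07, and 24.0 ± 3.87 CPM in Hopx CR and 11.1 ± 2.66 CPM in Hopx AL (SD, n = 2 each), a ratio of 2.16. In Lgr5 cells the log2 fold change was 2.82 (SE 0.336). Mt2 was 1 of the 3 genes, 0.0189% of those tested, that passed an edgeR adjusted p of 0.05 in Lgr5 CR against Lgr5 AL, and 0 genes passed there once isolation was a block in the fit. As that contrast chose the gene, the call supports nothing further here. In Hopx cells, whose libraries did not enter that contrast, Mt2 differed by 1.11 (SE 0.386) and did not pass (edgeR unadjusted p = 0.0166, adjusted p = 0.514). In these bulk libraries, fewer cells of a type and less RNA per cell cannot be told apart.

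Mt1, the other major metallothionein, had 189, 127 and 136 CPM in Lgr5 CR, against 78.7, 79.5 and 77.0 CPM in Lgr5 AL. The 3 Lgr5 AL libraries lay within a few CPM of each other, and the Lgr5 CR libraries were all above them. In Hopx cells the levels were 128 and 146 CPM under CR, against 119 and 125 CPM under AL, which did not overlap but lay close together. The log2 fold change was 0.94, SE 0.170, in Lgr5 cells, described only, and 0.17, SE 0.206, in Hopx cells (edgeR adjusted p = 0.842). Ordered by mean, Mt1 stood at 151 ± 33.2 CPM in Lgr5 CR, 137 ± 12.2 in Hopx CR, 122 ± 4.35 in Hopx AL and 78.4 ± 1.30 in Lgr5 AL (SD). Lgr5 CR and Hopx CR overlapped, and the Lgr5 AL libraries were below all others on this scale. On TPM they were not, with 276, 288 and 407 TPM in Lgr5 AL against 240 and 339 TPM in Hopx AL. Mean Mt1 was then 324 TPM in Lgr5 AL and 290 TPM in Hopx AL. The order of the group means on CPM was the same for Mt2, with Lgr5 CR and Hopx CR again overlapping.

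**Figure D2:**
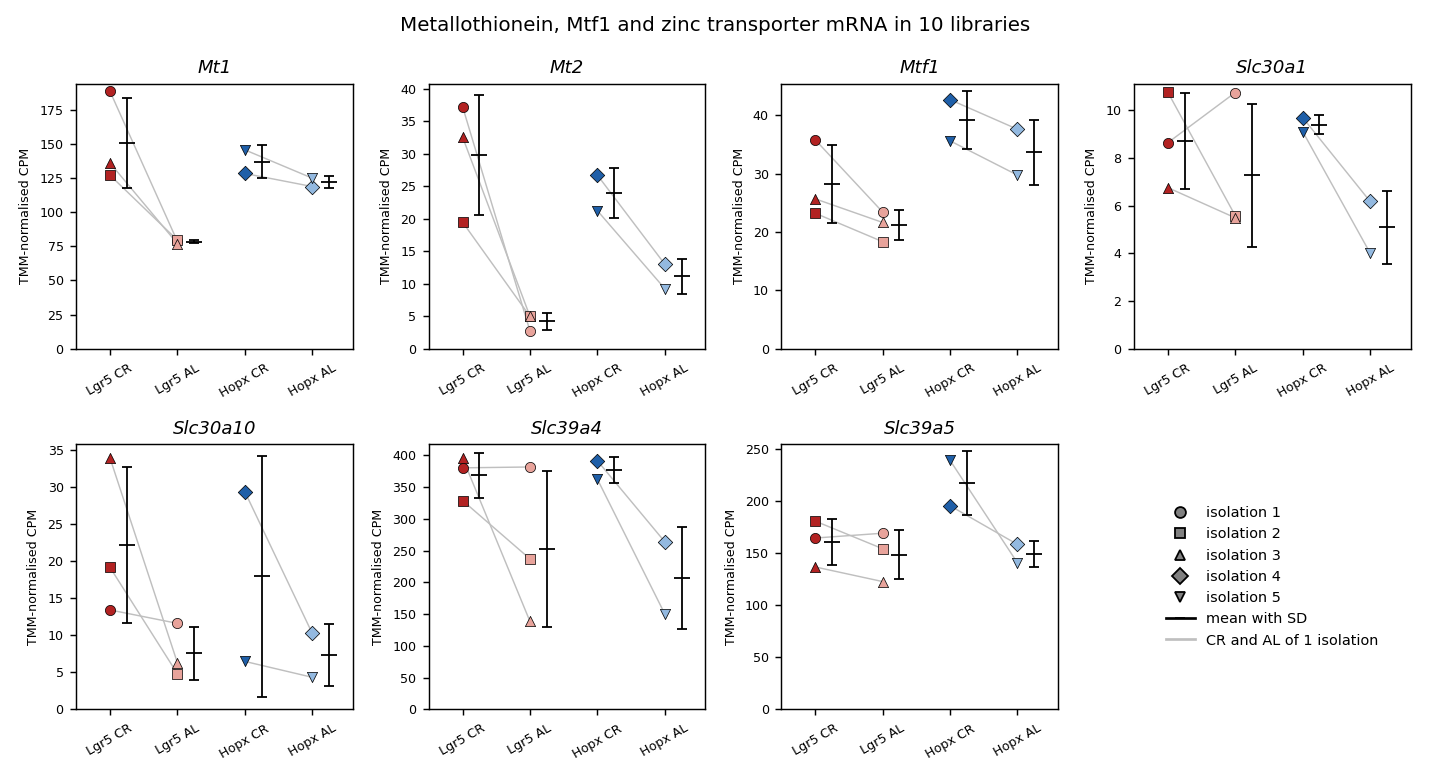
TMM-normalised CPM of the 7 genes in the 10 libraries by group, 1 panel per gene, each y axis starting at 0. Symbols mark the isolation, grey lines join the CR and AL library of 1 isolation, and black bars give the mean with its SD. For Mt2 every CR library (19.5 to 37.2 CPM) lies above every AL library (2.71 to 13.0 CPM), while for Slc39a5 in Lgr5 cells the groups overlap.

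Mt2 made up a larger share of metallothionein mRNA under CR, which in Lgr5 cells restates the contrast that selected the genes. Its share of Mt1 plus Mt2 TPM was 18.4, 14.9 and 21.5% in Lgr5 CR, against 3.80, 6.66 and 6.87% in Lgr5 AL. In Hopx cells it was 19.2 and 14.3% under CR, against 11.1 and 7.80% under AL. The CR and AL shares did not overlap in either population. No test was run on the shares, and those of Lgr5 cells are a description. The mean share was 18.3 ± 3.3% in Lgr5 CR and 5.78 ± 1.7% in Lgr5 AL (SD, n = 3 each), and 16.8 ± 3.5% in Hopx CR and 9.46 ± 2.4% in Hopx AL (SD, n = 2 each). This ratio within a library does not depend on how libraries are scaled to each other. With Mt1 and Mt2 summed to 1 row, the log2 fold change was 1.13 (SE 0.171) in Lgr5 cells and 0.28 (SE 0.207) in Hopx cells, where the edgeR adjusted p was 0.732. The transcripts of Mt1 and Mt2 share no stretch of 31 bases in the GENCODE M21 annotation, and 3 of the 573 such stretches of Mt2 occur in another gene. Gm45774 overlaps Mt2 on the opposite strand, and these libraries do not tell the strands apart.

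**Figure D3:**
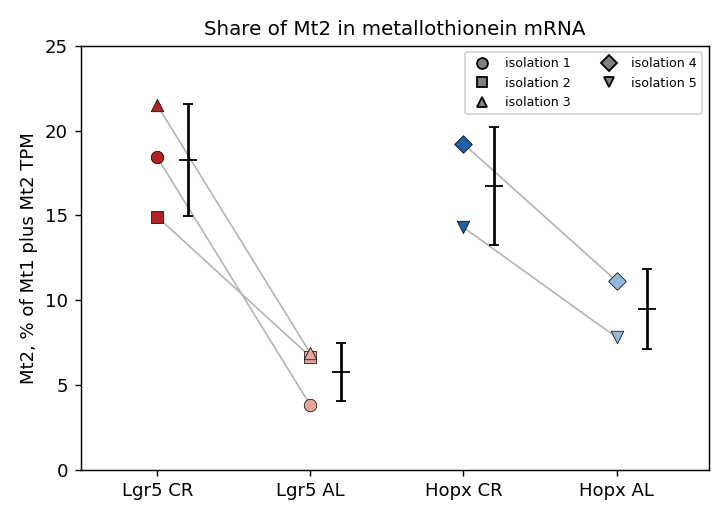
Share of Mt2 in the summed TPM of Mt1 and Mt2, in percent, for each library by group, with the mean and SD beside the points and grey lines joining the CR and AL library of an isolation. The CR point lies above the AL point in all 5 isolations, with CR at 14.3 to 21.5% and AL at 3.80 to 11.1%. The Lgr5 isolations among them are those on which the genes were selected.

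Mtf1 mRNA, which codes for the factor that senses zinc, had overlapping CR and AL levels. It had 35.8, 23.2 and 25.7 CPM in Lgr5 CR against 23.4, 18.3 and 21.6 CPM in Lgr5 AL, and 42.7 and 35.6 CPM in Hopx CR against 37.6 and 29.7 CPM in Hopx AL. Within each of the 5 isolations the CR mouse had more CPM, by log2 ratios of 0.60, 0.33, 0.24, 0.18 and 0.26. On the scale of log2(TPM + 1) it had more in 4, and isolation 3 was at -0.26. The log2 fold change was 0.42, SE 0.210, in Lgr5 cells and 0.22, SE 0.256, in Hopx cells (edgeR adjusted p = 0.837). Without Lgr5 CR replicate 1 the Lgr5 value was 0.18, and leaving out replicate 2 or replicate 1 of Hopx AL gave 0.057 or 0.41 in Hopx cells.

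Slc30a1, the plasma membrane exporter that returns zinc to the blood, had 8.64, 10.8 and 6.75 CPM in Lgr5 CR against 10.7, 5.58 and 5.49 CPM in Lgr5 AL, and 9.69 and 9.11 CPM in Hopx CR against 6.18 and 4.01 CPM in Hopx AL. The Lgr5 groups overlapped, with Lgr5 AL replicate 1 among the highest, while both Hopx CR libraries were above both Hopx AL libraries. The log2 fold change was 0.26, SE 0.340, in Lgr5 cells and 0.88, SE 0.418, in Hopx cells (edgeR adjusted p = 0.592). The Lgr5 value was 0.081 without Lgr5 CR replicate 2 and 0.65 without Lgr5 AL replicate 1. Slc30a10, whose human and mouse products export manganese, had 13.4, 19.2 and 33.9 CPM in Lgr5 CR against 11.6, 4.81 and 6.30 CPM in Lgr5 AL, and 29.4 and 6.47 CPM in Hopx CR against 10.3 and 4.33 CPM in Hopx AL. The 3 Lgr5 CR libraries were above the 3 Lgr5 AL libraries, and the Hopx groups overlapped because Hopx CR replicate 2 was near the AL level. Its log2 fold change was 1.55, SE 0.603, in Lgr5 cells and 1.29, SE 0.730, in Hopx cells (edgeR adjusted p = 0.645). The Hopx value rests on Hopx CR replicate 1, without which it was -0.18, and the Lgr5 value was 0.96 with both libraries of isolation 3 left out.

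Slc39a4, the zinc importer of the enterocyte brush border, whose loss in humans causes acrodermatitis enteropathica, had 380.4, 329 and 396 CPM in Lgr5 CR against 382, 237 and 138 CPM in Lgr5 AL, and 392 and 363 CPM in Hopx CR against 264 and 150.2 CPM in Hopx AL. Lgr5 AL replicate 1 was level with the CR libraries, so the Lgr5 groups overlapped, and the Hopx groups did not. The log2 fold change was 0.55, SE 0.333, in Lgr5 cells and 0.86, SE 0.410, in Hopx cells (edgeR adjusted p = 0.592). Leaving out replicate 2 or replicate 1 of Hopx AL gave 0.51 or 1.34 in Hopx cells, and the Lgr5 value was 0.24 to 0.97 with 1 library left out. With both libraries of isolation 3 left out the Lgr5 value was 0.16. Slc39a5, an importer on the basolateral side, had 165, 181 and 137 CPM in Lgr5 CR against 169, 154 and 123 CPM in Lgr5 AL, and 196 and 239 CPM in Hopx CR against 158 and 141 CPM in Hopx AL. The Lgr5 groups overlapped in part, and both Hopx CR libraries were above both Hopx AL libraries. The log2 fold change was 0.11, SE 0.177, in Lgr5 cells and 0.54, SE 0.218, in Hopx cells (edgeR unadjusted p = 0.0328, adjusted p = 0.554).

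In Hopx cells all 7 genes had a log2 fold change above 0, where the median of all genes was -0.02. That count rests on Hopx CR replicate 1, without which Slc30a10 was at -0.18. Of the 7, 0 passed an edgeR adjusted p of 0.05, against a background of 0.0126% of genes called (2 genes, both lower). An unadjusted p under 0.05 was reached by 2 of the 7, Mt2 and Slc39a5, against 8.52% of all genes, and 0.884% of all genes passed by DESeq2, none of them a member. The 2 Hopx CR libraries were above the 2 Hopx AL libraries for 5 of the 7 genes, against 21.5% of all genes. In Lgr5 cells the values did not overlap for 3 of 7, Mt1, Mt2 and Slc30a10, against 7.41% of all genes, and these were also the 3 of 7 at an edgeR unadjusted p under 0.05, against 9.78% of all genes. That contrast chose the genes, and nothing is read from these counts. The difference between the diet effects, Hopx minus Lgr5, was -1.71 (SE 0.499) for Mt2 and -0.77 (SE 0.266) for Mt1. Neither passed (edgeR adjusted p = 1.00 for each, with 0.00631% of genes called), and DESeq2 called 0 of 7, against 0.221% of all genes. At an edgeR unadjusted p under 0.05 there were 2 of the 7, Mt2 (0.00647) and Mt1 (0.0158), against 4.72% of all genes. This contrast subtracts the Lgr5 diet effect on which the genes were selected, so nothing is read from its sign or these p-values. The other 5 genes had differences of -0.26 to 0.62 and unadjusted p of 0.158 or more.

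Within isolations, Mt2 was higher in the CR mouse in 5 of 5. The log2 ratio of CR to AL, with 0.5 CPM added to both, was 3.55, 1.87, 2.60, 1.01 and 1.16 in isolations 1 to 5. For Mt1 it was 1.26, 0.67, 0.82, 0.11 and 0.22 in the same order, so both metallothioneins had their largest ratio in isolation 1 and their smallest in isolation 4. Slc39a4 ran in another order, with -0.01, 0.47, 1.51, 0.57 and 1.27, and was level in isolation 1. The summed level of the 16 enterocyte markers had log2 ratios of 0.02, 1.21, 1.96, 0.62 and 1.31 in those isolations. That sum is weighted to its most abundant genes, among them Apoa4 (3694 ± 3317 CPM in Lgr5 AL) and Apoa1 (4151 ± 4050 CPM, SD). Its ratio of 0.02 in isolation 1 thus does not show that each enterocyte marker was level there. The part of enterocytes in the metallothionein ratios was not tested. In isolation 1 the summed tuft cell markers differed by -1.92, immune cell markers by -0.87 and active stem cell markers by 0.94. In that pair Mt2 differed by 3.55 and Mt1 by 1.26, while Slc30a10 differed by 0.20, Slc39a4 by -0.01, Slc39a5 by -0.04 and Slc30a1 by -0.30. In the 2 Hopx isolations 7 of 7 genes were higher under CR, against 27.9% of all genes. In all 5 isolations 4 of the 7 were, Mt1, Mt2, Mtf1 and Slc30a10, against 8.71% of all genes. The Lgr5 isolations among these are the ones on which the genes were selected, so nothing is read from that count. The members in it depend on the scale. On log2(TPM + 1) Mtf1 was lower under CR in isolation 3 (-0.26), and Slc39a4 was higher in all 5, by 0.0013 in isolation 1. With both libraries of isolation 4 left out, where 1 CR and 1 AL library remain in Hopx cells and are assumed to vary like the others, Mt2 differed by 1.21, Mt1 by 0.23 and Slc39a5 by 0.78 in Hopx CR against Hopx AL, none of them called. With both libraries of isolation 3 left out, Mt2 differed by 2.84 and Mt1 by 0.96 in Lgr5 CR against Lgr5 AL, and the call of Mt2 was lost there, as it was without isolation 4 (2.79).

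**Figure D4:**
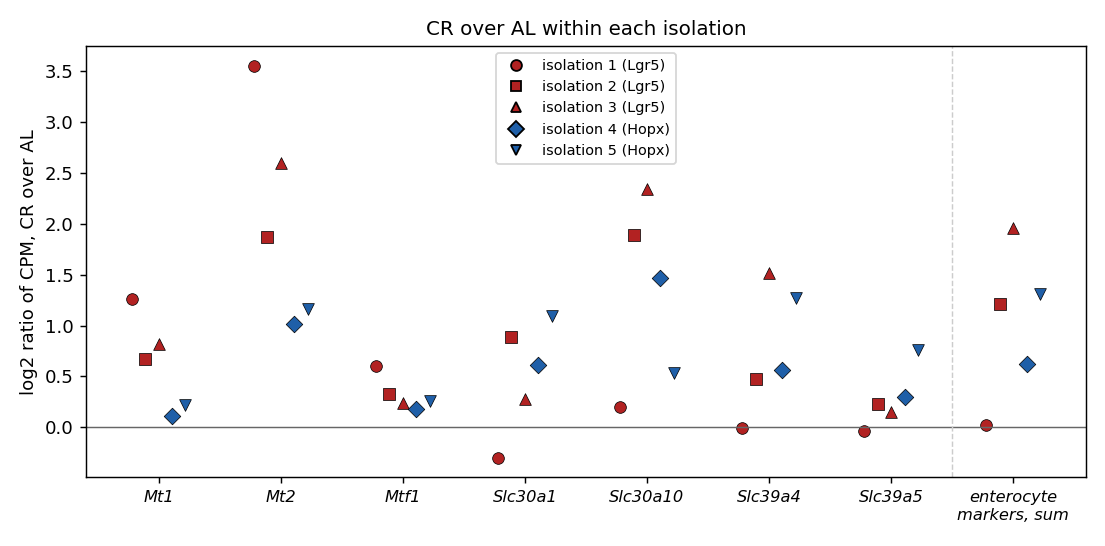
Log2 ratio of TMM-normalised CPM, CR over AL, within each of the 5 isolations for the 7 genes and, at the right, for the summed enterocyte markers (0.5 CPM added to both for the genes). Circles, squares and triangles in red are the 3 Lgr5 isolations, blue symbols the 2 Hopx isolations. Mt2 lies at 1.01 to 3.55, and the red circle, isolation 1, is the highest point for Mt1, Mt2 and Mtf1 and the lowest for the other 5 columns.

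Markers of other cell types were summed in the same libraries. Of the 16 enterocyte markers, 0 passed by edgeR in either diet contrast. At an edgeR unadjusted p under 0.05 there were 5 of 16 in Lgr5 cells, against 9.78% of all genes, and 4 of 16 in Hopx cells, against 8.52%. DESeq2 called 3 in Lgr5 cells, against 2.3% of all genes, and 2 in Hopx cells, against 0.884%. All 16 had a log2 fold change above 0 in Lgr5 CR against Lgr5 AL (median 0.79) and in Hopx CR against Hopx AL (median 1.00), with the median of all genes at 0.02 and -0.02. Their summed level was 23781 to 32847 CPM in Lgr5 CR against 6613 to 32420 CPM in Lgr5 AL, which overlapped, and 22037 to 25080 CPM in Hopx CR against 10083 to 14299 CPM in Hopx AL, which did not. Paneth cell markers summed to 62734 to 98575 CPM in Hopx CR against 84121 to 207797 CPM in Hopx AL, and to 49349 to 66568 CPM in Lgr5 CR against 16092 to 64624 CPM in Lgr5 AL. Tuft cell markers were at 93.3 to 157 CPM in Lgr5 CR against 278 to 658 CPM in Lgr5 AL, and at 257 to 486 CPM in Hopx CR against 194 to 530 CPM in Hopx AL. Of the 9 tuft cell markers edgeR called 0 in either diet contrast, with 8 in Lgr5 cells and 0 in Hopx cells at an unadjusted p under 0.05, and DESeq2 called 8 and 0. Other lists moved as well. In Hopx CR against Hopx AL, 0 of 10 immune cell markers had a log2 fold change above 0 (median -1.88), and 0 of 10 enteroendocrine cell markers (median -0.82). In Lgr5 CR against Lgr5 AL it was 2 of 10 (median -0.43) and 6 of 10 (median 0.32). Of 7 goblet cell markers, 4 were above 0 in each (medians 0.04 in Lgr5 and 0.13 in Hopx cells). No defining marker of the enterocyte, Paneth cell and tuft cell lists was at 0 in all libraries of a group. The part of these cells in the levels of the 7 genes was not tested.

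The populations were compared under each diet. Both contrasts use the Lgr5 libraries on which the genes were selected, so nothing is read from their p-values and calls. Under AL, Mt1 had 119 and 125 CPM in Hopx cells and 78.7, 79.5 and 77.0 CPM in Lgr5 cells, while Mt2 had 13.0 and 9.23 CPM in Hopx cells and 2.71, 4.95 and 4.96 CPM in Lgr5 cells. Both metallothioneins and Mtf1 were higher in Hopx AL with no overlap, 3 of 7 genes against 18.8% of all genes. Mt2 differed by 1.40, SE 0.349 (edgeR adjusted p = 0.108), Mt1 by 0.64, SE 0.186 (edgeR adjusted p = 0.136) and Mtf1 by 0.67, SE 0.232 (edgeR adjusted p = 0.179). None of the 7 genes passed, with 0.0189% of genes called, and at an unadjusted p under 0.05 these 3 did, against 17.7% of all genes. DESeq2 called 1 of 7, Mt2 (adjusted p = 0.00869), against 7.17% of all genes. The 4 transporters differed by -0.51 to 0.01 in the edgeR fit. Under CR the populations were closer for the metallothioneins, with -0.14, SE 0.188, for Mt1 and -0.31, SE 0.350, for Mt2 (edgeR adjusted p = 0.969 and 0.963). No member reached an unadjusted p under 0.05 there (6.3% of all genes did), and 0 of 7 passed by edgeR (0.0189% of genes called) or DESeq2 (0.953%). Slc39a5 was the 1 member without overlap, at 196 and 239 CPM in Hopx CR and 165, 181 and 137 CPM in Lgr5 CR (log2 difference 0.44, SE 0.196, edgeR adjusted p = 0.796), against 11.7% of all genes.

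On the scale of log2(TPM + 1), the median of 12752 genes itself shifted by -0.15 in Lgr5 CR against Lgr5 AL, 0.24 in Hopx CR against Hopx AL and -0.62 in Hopx AL against Lgr5 AL. Relative to that median Mt2 differed by 2.70, 1.14 and 1.23 in these comparisons and Mt1 by 0.86, 0.22 and 0.47. Without subtracting the shift, Mt1 and Mtf1 were lower in Hopx AL than in Lgr5 AL, at -0.16 and -0.12. Slc39a4 (-1.01, limma adjusted p = 0.0172) and Slc39a5 (-0.77, limma adjusted p = 0.0191) were then called in that contrast, as were 29.4% of all genes. On log2(TPM + 0.1), with 30.5% of all genes called, Slc30a1 (-1.20, limma adjusted p = 0.0464) was called as well. Relative to the median on log2(TPM + 1), Slc39a4 differed by -0.38, Slc30a1 by -0.21 and Slc39a5 by -0.14.

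The rest of the zinc transporter and metallothionein families was followed for comparison, 22 other genes of which 19 had enough reads. None passed the test in any of the 5 contrasts, by edgeR or by DESeq2, and at an edgeR unadjusted p under 0.05 there were 5 of the 19 in Lgr5 CR against Lgr5 AL, 2 in Hopx CR against Hopx AL, 3 in Hopx AL against Lgr5 AL and 0 in the other contrasts. The shares of all genes in the first 3 of these were 9.78, 8.52 and 17.7%. Of the 9 tested SLC30 genes, the zinc exporters and vesicle loaders, 8 had a log2 fold change above 0 in Lgr5 CR against Lgr5 AL (median 0.28, all genes 0.02) and 7 in Hopx CR against Hopx AL (median 0.13, all genes -0.02). These counts and medians include the members Slc30a1 and Slc30a10, which were above 0 in each contrast. Slc30a2, which loads zinc into secretory granules, had 121, 89.0 and 112 CPM in Lgr5 CR against 76.4, 49.5 and 45.8 CPM in Lgr5 AL, and 84.1 and 63.5 CPM in Hopx CR against 43.2 and 29.2 CPM in Hopx AL. The groups did not overlap in either population, and the log2 fold change was 0.91 in Lgr5 cells and 1.03 in Hopx cells (edgeR adjusted p = 0.261 and 0.478). Of the 13 tested SLC39 importers, 10 were above 0 in each population (medians 0.15 and 0.32). The members Slc39a4 and Slc39a5, above 0 in each population, are included there too. Slc39a14, an importer of zinc, iron and manganese, differed by 0.71 in Lgr5 cells and 0.52 in Hopx cells (edgeR adjusted p = 0.346 and 0.635). Slc39a2, scarce at 0.718 TPM, was lower under CR, by -1.33 in Lgr5 cells and -1.36 in Hopx cells (edgeR adjusted p = 0.566 and 0.675). The most abundant of the other importers per length was Slc39a7, which releases zinc from the endoplasmic reticulum, at 107 TPM, and Slc39a12 was the scarcest, at 0.00114 TPM. Slc30a5, which carries zinc into the secretory pathway, led the SLC30 genes at 45.6 TPM, and Slc30a8, the exporter of insulin granules, was lowest at 0.0377 TPM. Mt3 and Mt4, metallothioneins of brain and stratified epithelium, were near absent at 0.524 and 0.175 TPM.

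**Figure D5:**
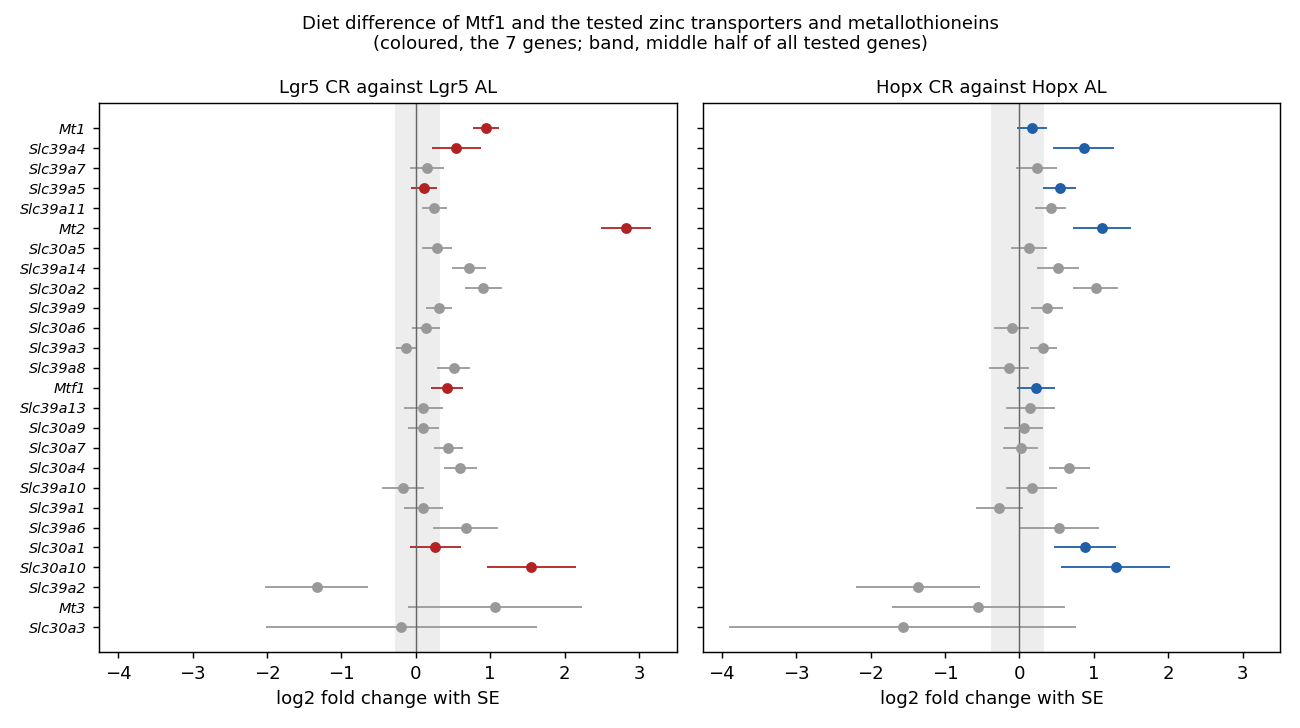
Log2 fold change with its SE for Mtf1 and the tested metallothionein and zinc transporter genes in Lgr5 CR against Lgr5 AL (left) and Hopx CR against Hopx AL (right), from 1 edgeR fit, ordered by mean TPM. The 7 genes are coloured and the grey band runs from the first to the third quartile of all tested genes. Mt2 stands farthest right in Lgr5 cells at 2.82, with Slc30a10 at 1.55, and in Hopx cells Slc30a10 (1.29) and Mt2 (1.11) do, with wide errors.

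Genes around this system were counted from lists. The share of all genes at an edgeR unadjusted p under 0.05 was 9.78% in Lgr5 CR against Lgr5 AL and 8.52% in Hopx CR against Hopx AL. Of 10 copper handling genes, 7 were above 0 in Lgr5 CR against Lgr5 AL and 5 in Hopx CR against Hopx AL (medians 0.07 and -0.08), and 0 passed by edgeR or DESeq2, with 2 and 1 at an edgeR unadjusted p under 0.05. Atp7b, a copper-transporting ATPase, had 39.9 ± 14.0 CPM in Lgr5 CR and 26.7 ± 4.97 CPM in Lgr5 AL, and 45.0 ± 2.77 CPM in Hopx CR and 21.6 ± 0.142 CPM in Hopx AL (SD), with log2 fold changes of 0.58 and 1.06 (edgeR adjusted p = 0.495 and 0.478). Of 10 genes that glucocorticoids induce, 5 were above 0 in Lgr5 cells and 4 in Hopx cells (medians -0.03 and -0.06), and 0 passed by edgeR or DESeq2, with 3 and 1 at an edgeR unadjusted p under 0.05. The clock gene Per1 had 4.67 ± 1.62 CPM in Lgr5 CR and 12.2 ± 7.56 CPM in Lgr5 AL, but 13.4 ± 7.34 CPM in Hopx CR and 5.18 ± 1.28 CPM in Hopx AL (SD), with log2 fold changes of -1.37 and 1.38 (edgeR adjusted p = 0.401 and 0.577). Of 6 other tested genes linked to MTF1, 6 were above 0 in Lgr5 cells and 4 in Hopx cells (medians 0.45 and 0.13), and 0 passed by edgeR or DESeq2, with 3 and 0 at an edgeR unadjusted p under 0.05. The iron exporter Slc40a1 had 89.7 ± 74.7 CPM in Lgr5 CR and 13.4 ± 6.25 CPM in Lgr5 AL, against 59.2 ± 0.136 CPM in Hopx CR and 66.2 ± 34.6 CPM in Hopx AL (SD).

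The genes whose pattern over the 10 libraries lay nearest to Mt1 and Mt2 were found by the root-mean-square difference of mean-centred log2 CPM among 2059 variable genes. Nearest to Mt2 were Abcb1a (0.515), Gstm1 (0.527), Akr1c19 (0.546), Cirbp (0.563) and Tmprss15 (0.571), where the median gene was at 1.25 and Mt1 at 0.866. Abcb1a is the drug efflux pump P-glycoprotein, and it had 264 ± 140 CPM in Lgr5 CR and 30.2 ± 3.20 CPM in Lgr5 AL, and 201 ± 5.96 CPM in Hopx CR and 61.3 ± 43.6 CPM in Hopx AL (SD). Gstm1 is a glutathione transferase, with 704 ± 57.3 CPM in Lgr5 CR and 121.6 ± 30.5 CPM in Lgr5 AL, and 702 ± 153 CPM in Hopx CR and 269.8 ± 201 CPM in Hopx AL (SD). Akr1c19 is an aldo-keto reductase, Cirbp a cold-inducible RNA-binding protein and Tmprss15 the brush-border enzyme that activates trypsinogen. Nearest to Mt1 were Gpcpd1 (0.210), Dnajb4 (0.239), Wdr44 (0.245), Ugt2b34 (0.248) and Ugcg (0.255), with the median gene at 0.698. Mt2 was farther from Mt1 than that median gene, at 0.866. Genes with an SD of log2 CPM under 0.5 were not compared, so less variable genes could not be named. Gpcpd1 cleaves glycerophosphocholine and Ugcg makes glucosylceramide. These likenesses rest on the same 10 libraries and describe them.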

How the data were processed

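RNA was measured in 10 libraries, 1 per mouse. Per the labels' protocols, RNA was cleaned on spin columns after TRIzol LS, cDNA was amplified with SMART-Seq v4 and libraries were made with Nextera XT for a NextSeq 500. These kits hold no molecular identifiers and no strand, so Mt2, Mtf1, Slc30a1 and Slc30a10 cannot be told from the antisense genes that overlap them in GENCODE M21. The authors deposited estimated counts and TPM values per gene symbol. Tools named in the submitters' processing notes are kallisto and edgeR, without versions, and the build there is GRCh38, a human build, although the rows carry mouse symbols. The step from transcripts to genes is not given in the sources used here.

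Estimated counts were rounded, filtered by edgeR's filterByExpr (minimum count 10), scaled by TMM and fitted by edgeR 4.0.16 (R 4.3.3, quasi-likelihood) with 1 mean for each of 4 groups over all 10 libraries. The fit was also run on simulated counts with changes planted only in Lgr5 CR and no isolation effect. That run does not cover a diet effect in Hopx cells or the pairing. The biological coefficient of variation was 0.389. Two-sided p-values were adjusted by Benjamini-Hochberg over the 15839 genes, with a threshold of 0.05. The SE is the size of the log2 fold change divided by the square root of F. Levels are TMM-normalised CPM between libraries and TPM between genes. No libraries held identical values, and r of log2 CPM within groups was 0.937 to 0.965.

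The members and lists were chosen with earlier results of these data known. The rule named all 7 members, the highest and lowest of each zinc family list, the 5 genes nearest in pattern to Mt1 and to Mt2 (mean of at least 5 CPM, SD of log2 CPM of at least 0.5), and the members of other lists with the smallest p. Slc39a14, Slc30a2 and Slc39a2 were picked after their values were seen. The isolation number, which the labels give as a batch, pairs the CR and AL libraries. The correlation of their deviations from the group means was 0.0759, 0.165, 0.0195, 0.0252 and 0.0252 in isolations 1 to 5. Alternatives were the isolation block, DESeq2 1.42.0, other size factors, no filter, a filter of 1 CPM, limma 3.58.1 on log2(TPM + 1) or log2(TPM + 0.1), fits of only the groups compared, each library left out, and, chosen after seeing the data, isolation 3 or 4 left out.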

Additional observations from a re-analysis of the deposited data

How the results depend on the processing

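The numbers of genes called in Lgr5 CR against Lgr5 AL, Hopx CR against Hopx AL, the difference between diet effects, Hopx AL against Lgr5 AL and Hopx CR against Lgr5 CR were 3, 2, 1, 3 and 3. DESeq2 called 365, 140, 35, 1135 and 151, no filter 83, 7, 3, 194 and 24, limma on log2(TPM + 1) 33, 4, 4, 3745 and 13, and on log2(TPM + 0.1) 24, 3, 2, 3886 and 13. With isolation as a replicate block the first 3 counts were 0, 0 and 0, and the Mt2 call was lost. DESeq2 size factors gave 1 in the first, a filter of 1 CPM gave 58 in the fourth, and fits of only the groups compared gave 12 in the last. Without isolation 4 they were 4, 0, 0, 5 and 4, and without isolation 3 they were 0, 1, 2, 0 and 3. Leaving out 1 library gave 0 to 109, 1 to 3, 1 to 2, 0 to 110 and 1 to 7. The cause of these moves was not tested.

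Lgr5 CR against Lgr5 AL selected the genes, so its calls here are a description. The Mt2 difference in it stayed at 2.55 to 2.84 in 10 alternatives and at 2.59 to 3.05 with each library left out, and it kept its call in 5 of the 10 and in 3 of the 10. Mt2 in Hopx CR against Hopx AL stayed above 0 in all 10 alternatives, at 1.09 to 1.40, with no call. The sum of Mt1 and Mt2 was past the threshold in Lgr5 cells by DESeq2 (1.09) and with no filter (1.15), and for Hopx AL against Lgr5 AL by DESeq2 (0.65). Its Lgr5 value was 0.90 to 1.25 with 1 library left out. For Hopx AL against Lgr5 AL it changed sign on both TPM scales (-0.10 each), and for Hopx CR against Lgr5 CR it ran from -0.29 to 0.023 with 1 library left out. Of 679 values of members under alternatives, 615 kept direction and side of the threshold, 12 lost a call, 6 gained one and 46 changed sign.

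The sign changes were as follows, most of them in differences near 0. For Hopx AL against Lgr5 AL, Slc39a5 (0.01) became -0.034 with DESeq2 and with its size factors, -0.025 with a filter of 1 CPM, -0.017 in the fit of only the groups compared, and -0.11 and -0.15 without isolation 4 and 3. On log2(TPM + 1) and log2(TPM + 0.1), before subtracting the shift of all genes, it was -0.77 and -0.77 there, Mt1 was -0.16 and -0.16, and Mtf1 was -0.12 and -0.12. On these scales Slc39a5 was -0.090 and -0.091 in Lgr5 CR against Lgr5 AL, the Mtf1 difference between diet effects was 0.29 and 0.31, and for Hopx CR against Lgr5 CR Slc30a1 was -0.13 and -0.16 and Slc39a4 -0.26 and -0.26. Without isolation 3, Slc30a1 (-0.059) and Slc30a10 (0.13) turned for Hopx CR against Lgr5 CR, as did Slc30a10 (0.33) in the difference between diet effects, and without isolation 4 Slc39a4 (-0.015) turned for Hopx CR against Lgr5 CR. With 1 library left out, Slc30a10 ranged from -0.18 to 2.06 in Hopx CR against Hopx AL and Slc39a5 from -0.012 to 0.22 in Lgr5 CR against Lgr5 AL. In the difference between diet effects the ranges were -0.37 to 0.035 for Mtf1, -1.74 to 0.54 for Slc30a10 and -0.11 to 0.82 for Slc39a4. For Hopx AL against Lgr5 AL they were -0.84 to 0.45 for Slc30a10, -0.78 to 0.14 for Slc39a4 and -0.13 to 0.11 for Slc39a5. For Hopx CR against Lgr5 CR they were -0.24 to 0.050 for Mt1, -0.045 to 0.29 for Slc30a1, -1.78 to 0.41 for Slc30a10 and -0.042 to 0.091 for Slc39a4.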
